A study of Mus musculus with 8 samples.

Results

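The genes described here are 8 members and targets of the YAP pathway, chosen by symbol: the kinase gene Lats2, the coactivator genes Yap1 and Wwtr1, the DNA-binding partner gene Tead1, and the target genes Ctgf, Cyr61, Ankrd1 and Amotl2. All 8 were found among the 34465 genes measured, and all 8 averaged 1 or more in signal, the level needed to enter a test. YAP, encoded by Yap1, and its relative TAZ, encoded by Wwtr1, carry no DNA-binding domain of their own and act on genes through TEAD proteins. The Hippo kinases, among them LATS2, phosphorylate both coactivators and hold them out of the nucleus, so YAP activity is set largely at the protein level, which RNA levels do not report. In liver the pathway is known for restraining organ size, for its activity in bile duct cells and stellate cells, and for changes during regrowth after tissue loss.

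RNA was sequenced from whole livers of mice that all carried floxed b-PDGFR alleles (b-PDGFR fl/fl, gene Pdgfrb) on the strain background 129S4/SvJae/FVB, at 3 months of age. The mice were Cre-negative or Cre-positive for a transgene in which the GFAP promoter drives Cre, described in the labels as a deletion in hepatic stellate cells, so any change in those cells was measured against the RNA of all other liver cells. Each genotype was sampled after sham surgery and, separately, 72 h after partial hepatectomy, the surgical removal of part of the liver. This gave 4 groups (Cre-negative or Cre-positive, with sham or hepatectomy), each with 2 libraries. Whether the 2 libraries of a group are separate animals is not stated in the labels, so p-values measure only the spread between these libraries, which may be technical.

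Values are a normalized signal per gene as deposited, in an unnamed unit, and the read depth behind them is unknown. Signal summed to between 8617660 and 11583800 per library. Cre-positive hepatectomy replicate 2 stood apart: its 10 most abundant genes held 30.0% of the signal, against 14.3% to 18.4% in the other 7 libraries. In that library genes with low GC content also had low signal. Among 928 genes with GC under 40% its median log2 difference from the mean of the sham libraries was -1.49, and among 3496 genes with GC of 55% or more it was 0.66, while in Cre-positive hepatectomy replicate 1 the median stayed between -0.11 and 0.00 in all 5 GC classes. In the Cre-negative hepatectomy libraries it ran from -0.03 to 0.61 and from -0.04 to 0.40. Pdgfrb, the floxed gene, had a signal of 49.8 and 63.3 in Cre-negative sham, 59.4 and 46.0 in Cre-positive sham, 123 and 70.5 in Cre-negative hepatectomy, and 63.1 and 99.9 in Cre-positive hepatectomy libraries. The 2 genotypes overlapped in Pdgfrb after either operation, so its level in whole liver did not separate them, and that signal covers the whole gene rather than the floxed exons. Gfap, whose promoter drives Cre, was 3.57 and 2.92 in Cre-negative sham, 0.749 and 1.04 in Cre-positive sham, 7.35 and 4.66 in Cre-negative hepatectomy, and 0.189 and 3.04 in Cre-positive hepatectomy libraries. It was lower in the Cre-positive libraries after either operation, without passing (averaged over operations -1.41, SE 0.43, limma adjusted p = 0.509). The hepatocyte gene Alb was listed at 0 in 7 libraries, so an exact 0 can be a failed estimate.

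The target genes are shown first by the DNA upstream of their start, because Cyr61 and Ankrd1 had their highest signal in hepatectomy libraries while Amotl2 had its lowest there. The stretches are the 250 bases before the start site in RefSeq annotation of GRCm38.p6, printed 5′ to 3′ on the strand of the gene: chr3:145649986-145650235 (minus strand) for Cyr61, chr19:36119845-36120094 (minus strand) for Ankrd1 and chr9:102717554-102717803 (plus strand) for Amotl2. Capitals mark GGAATG or its reverse complement CATTCC, the core of the motif that TEAD proteins bind.
Cyr61 upstream stretch: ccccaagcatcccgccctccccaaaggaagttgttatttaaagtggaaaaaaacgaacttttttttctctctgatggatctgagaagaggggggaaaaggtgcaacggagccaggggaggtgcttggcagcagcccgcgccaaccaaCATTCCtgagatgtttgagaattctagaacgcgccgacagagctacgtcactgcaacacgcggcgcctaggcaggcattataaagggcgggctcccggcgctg
Ankrd1 upstream stretch: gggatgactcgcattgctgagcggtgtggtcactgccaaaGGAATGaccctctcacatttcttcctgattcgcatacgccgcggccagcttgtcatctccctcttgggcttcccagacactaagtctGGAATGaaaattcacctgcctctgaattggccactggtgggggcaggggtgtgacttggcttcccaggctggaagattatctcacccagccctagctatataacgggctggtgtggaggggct
Amotl2 upstream stretch: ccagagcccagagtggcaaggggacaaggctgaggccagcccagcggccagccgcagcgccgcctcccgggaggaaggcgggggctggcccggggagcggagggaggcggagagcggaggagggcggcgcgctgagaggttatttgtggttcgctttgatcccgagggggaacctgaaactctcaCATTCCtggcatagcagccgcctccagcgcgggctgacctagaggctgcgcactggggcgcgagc
Ankrd1 held 2 copies on the gene's own strand, beginning 210 and 123 bases before the start. Cyr61 held 1 copy on the opposite strand, whose far end lay 103 bases before the start, and Amotl2 held 1 on the opposite strand, 65 bases before the start. Of the 6 genes with an entry in the RefSeq promoter table, 5 held the motif on either strand: these 3, Yap1 (141 bases before the start) and Wwtr1 (170 and 136 bases before its 2 annotated starts). Neither window of Lats2 held it. For comparison, 14.4% of the 27025 genes in the table had at least 1 window with the motif, and 12.6% of all 32851 windows did. A second copy, as in Ankrd1, was found in 1.02% of windows. A match describes the letters in the window and does not show a binding site.

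No gene of the 8 passed the test of any of the 7 contrasts. The test was limma on log2(signal + 1), with a Benjamini-Hochberg adjusted p under 0.05 over 16443 genes taken as passing, and fold changes below are differences of that quantity. Ankrd1, Cyr61 and Ctgf had positive hepatectomy fold changes in both genotypes, and Lats2, Amotl2 and Wwtr1 had negative ones in both. Yap1 and Tead1 had opposite signs in the 2 genotypes. The Wwtr1 value was -0.095 in Cre-negative livers, and 1 Cre-positive hepatectomy library was low. For hepatectomy averaged over genotypes, 0 of 8 passed, where 4.49% of all genes did. In Cre-negative livers 0 of 8 passed against 1.11% of all genes, and in Cre-positive livers 0 of 8 against 0.943%. For genotype the background was far lower: 0.00608% of genes passed in sham livers and 0.0182% after hepatectomy, with 0 of 8 members in each. It was 0.0122% both averaged over operations and for the interaction, which asks whether hepatectomy acted differently in the 2 genotypes, again with 0 of 8.

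Unadjusted p-values under 0.05 were common among all genes and are read against that background. For averaged hepatectomy 23.8% of genes had one (16.1% higher and 7.75% lower), and among members 1 was higher (Ankrd1) and 2 were lower (Lats2 and Amotl2). In Cre-negative livers 21.3% of genes and 1 member (Ankrd1, higher) had one, and in Cre-positive livers 13.5% of genes and 2 members (Tead1, higher, and Amotl2, lower). Between genotypes the shares were 0.888% of genes and 0 members in sham livers, 18.3% and 2 members (Yap1, higher, and Ankrd1, lower) after hepatectomy, and 8.53% and 0 members averaged over operations. For the interaction they were 8.09% of genes and 1 member, Yap1. Leaving out Cre-positive hepatectomy replicate 1 gave calls for averaged hepatectomy in Ankrd1, Lats2 and Wwtr1, in a fit where 5408 genes passed in place of 738.

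**Figure D1:**
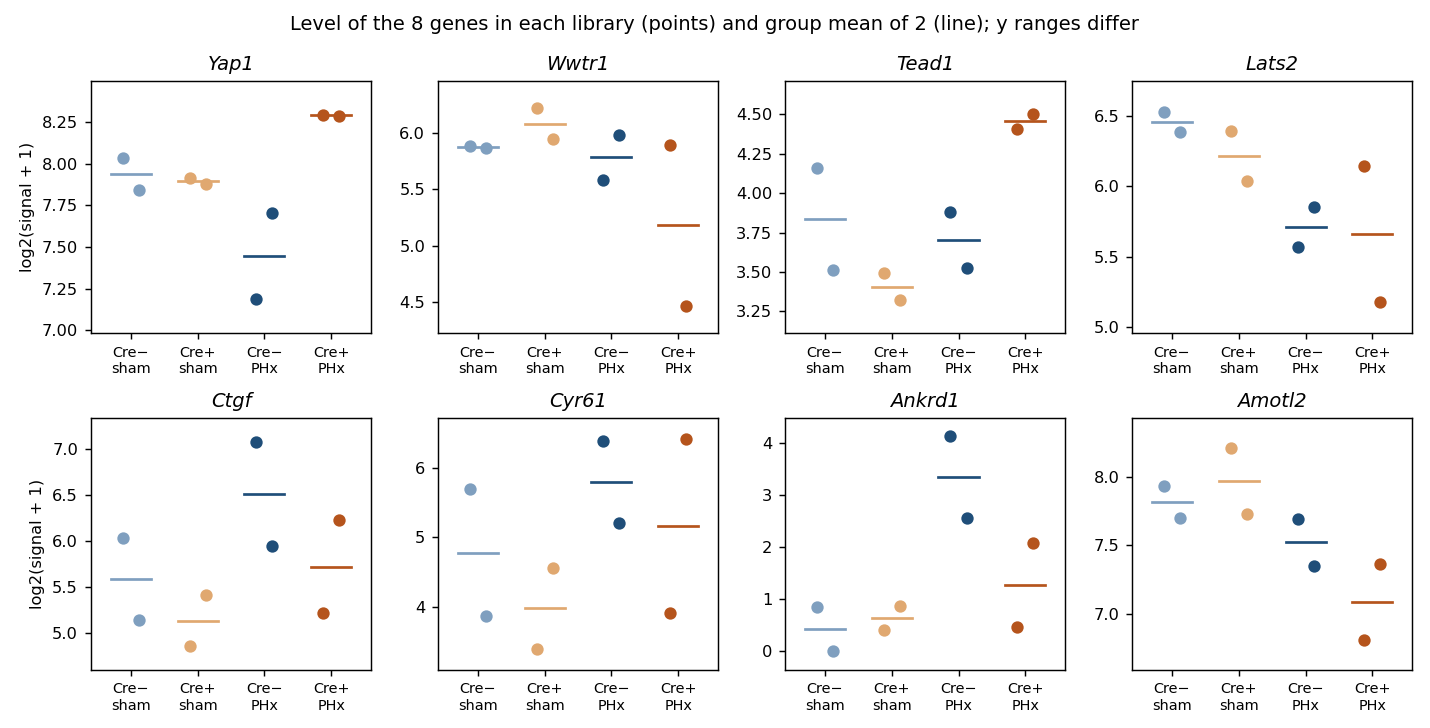
Signal of the 8 genes in each library, on a log2(signal + 1) axis whose range differs between panels. Points are libraries, lines are means of the 2 libraries of a group, Cre− and Cre+ stand for Cre-negative and Cre-positive, and PHx stands for partial hepatectomy. The Yap1 points of Cre-positive hepatectomy lie at 312 in both libraries, while those of Cyr61 in the same group lie at 14.0 and 84.3.

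Lats2 encodes a kinase that phosphorylates YAP and TAZ and is itself a known YAP target. Its signal was 91.6 and 82.7 in Cre-negative sham, 83.1 and 64.6 in Cre-positive sham, 46.5 and 56.7 in Cre-negative hepatectomy, and 69.8 and 35.1 in Cre-positive hepatectomy libraries. In Cre-negative livers both hepatectomy libraries lay under both sham libraries, and in Cre-positive livers the first hepatectomy library lay between the sham libraries. How many of all genes were separated as in Cre-negative livers was not computed. The difference of the responses between genotypes was 0.19 (SE 0.53, limma adjusted p = 0.925). The log2 fold change after hepatectomy averaged over genotypes was -0.65 (SE 0.27, n = 2 per group, limma adjusted p = 0.197). Without Cre-positive hepatectomy replicate 1 it was -0.90 and passed (limma adjusted p = 0.0151), and in Cre-positive livers alone it was -1.04 (adjusted p = 0.0449). The fit without that library rests on Cre-positive hepatectomy replicate 2, where Lats2 was at -1.17 against the mean of sham on the log2 scale. Genes of its GC class, 50% to 55%, had a median of 0.47 above sham in that library.

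Yap1 encodes the coactivator itself. Its signal was 261 and 229 in Cre-negative sham, 239.9 and 234 in Cre-positive sham, 145 and 208 in Cre-negative hepatectomy, and 312 and 312 in Cre-positive hepatectomy libraries. Both Cre-negative hepatectomy libraries lay under all 4 sham libraries, and both Cre-positive hepatectomy libraries lay above all 4. The share of all genes with either pattern was not computed. In the test, the hepatectomy log2 fold change was -0.49 (SE 0.25, limma adjusted p = 0.306) in Cre-negative livers and 0.40 (SE 0.25, adjusted p = 0.516) in Cre-positive livers. The difference of the responses was 0.89 (SE 0.36, limma adjusted p = 0.599). Within hepatectomy livers Yap1 was 0.84 higher in Cre-positive libraries (95% interval 0.25 to 1.44, limma adjusted p = 0.18), which did not pass. The 2 genotypes did not overlap after hepatectomy in 40.4% of all genes, and in 14.2% of all genes the Cre-positive libraries were the higher ones, as for Yap1.

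Wwtr1 encodes TAZ. Its signal was 58.2 and 57.5 in Cre-negative sham, 73.7 and 60.6 in Cre-positive sham, 46.9 and 62.3 in Cre-negative hepatectomy, and 58.6 and 21.1 in Cre-positive hepatectomy libraries. Cre-positive hepatectomy replicate 2 was low, and the other 7 libraries lay between 46.9 and 73.7. That library set the hepatectomy fold change in Cre-positive livers, -0.90 (SE 0.47, limma adjusted p = 0.448). Without replicate 1 of that group the fold change was -1.62 and passed (limma adjusted p = 0.0145), as did the average over genotypes (-0.86, adjusted p = 0.019) and the genotype difference after hepatectomy (-1.32, adjusted p = 0.0358). In those fits 3507, 5408 and 2217 genes passed, in place of 155, 738 and 3. Without replicate 2 the Cre-positive value was -0.19. Wwtr1 transcripts have 43.9% GC, and the 3064 genes of 40% to 45% GC had a median of -0.83 against sham in replicate 2, where Wwtr1 itself was at -1.52. The part of that library's GC pattern in the Wwtr1 value was not tested.

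Tead1 encodes a TEAD protein, the DNA-binding partner of YAP and TAZ. Its signal was 16.9 and 10.4 in Cre-negative sham, 10.2 and 9.0 in Cre-positive sham, 13.7 and 10.5 in Cre-negative hepatectomy, and 20.2 and 21.6 in Cre-positive hepatectomy libraries. Both Cre-positive hepatectomy libraries lay above the other 6, and the Cre-negative hepatectomy libraries lay within the range of sham. In 14.2% of all genes both Cre-positive hepatectomy libraries exceeded both Cre-negative ones, and the share above all other 6 was not computed. The log2 fold change after hepatectomy was 1.05 (SE 0.37, limma adjusted p = 0.291) in Cre-positive livers and -0.13 (SE 0.37, adjusted p = 0.86) in Cre-negative livers. The difference between these responses was 1.18 (SE 0.53, limma adjusted p = 0.633). Yap1 and Tead1 were the members whose 2 highest libraries were both Cre-positive hepatectomy libraries.

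Ctgf encodes a secreted matrix protein of the CCN family and is a widely used readout of YAP and TEAD activity. Its signal was 64.4 and 34.2 in Cre-negative sham, 28.0 and 41.3 in Cre-positive sham, 134 and 60.6 in Cre-negative hepatectomy, and 36.0 and 73.4 in Cre-positive hepatectomy libraries. The highest library belonged to Cre-negative hepatectomy, but the 2 operations overlapped, since a Cre-negative sham library exceeded 1 hepatectomy library of each genotype. The averaged hepatectomy log2 fold change was 0.75 (SE 0.39, limma adjusted p = 0.274), with 0.92 (SE 0.55) in Cre-negative and 0.58 (SE 0.55) in Cre-positive livers.

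Cyr61, a second CCN gene that YAP and TEAD induce, varied widely between replicates. Its signal was 50.7 and 13.6 in Cre-negative sham, 9.56 and 22.6 in Cre-positive sham, 82.2 and 36.0 in Cre-negative hepatectomy, and 14.0 and 84.3 in Cre-positive hepatectomy libraries. A high and a low library thus stood in every group. On the log2(signal + 1) scale the 2 replicates of Cre-negative sham differed by 1.83, more than in 98.8% of the 12165 genes that averaged 10 or more in signal, and in the other 3 groups the gap was wider than in 91% to 96.1% of them. The averaged hepatectomy log2 fold change of 1.10 therefore had an SE of 0.68 and a 95% interval from -0.50 to 2.70 (limma adjusted p = 0.348). In Cre-positive livers it was 1.18, 2.43 without replicate 1 of hepatectomy and -0.07 without replicate 2.

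Ankrd1 encodes a nuclear ankyrin repeat protein, likewise a common YAP readout, and it was near 0 in sham livers. Its signal was 0.795 and 0 in Cre-negative sham, 0.330 and 0.812 in Cre-positive sham, 16.4 and 4.89 in Cre-negative hepatectomy, and 0.387 and 3.23 in Cre-positive hepatectomy libraries. Both Cre-negative hepatectomy libraries exceeded all others, and a Cre-positive hepatectomy library was within the range of sham. In 26.3% of all genes both Cre-negative hepatectomy libraries exceeded both Cre-positive ones, and the share above all others was not computed. The log2 fold change was 2.92 (SE 0.74, limma adjusted p = 0.11) in Cre-negative livers, 0.64 (SE 0.74, adjusted p = 0.713) in Cre-positive livers and 1.78 (SE 0.52, adjusted p = 0.109) averaged over both. At these low signals the size depends on the constant added before the logarithm: the Cre-negative value was 4.92 with 0.1 added and 0.93 with 10 added. With 1 added, the Cre-negative value stayed at 2.92 without either Cre-positive hepatectomy library, since neither enters it and only the shared spread changed. The averaged value was 2.18 without Cre-positive hepatectomy replicate 1. After hepatectomy the Cre-positive minus Cre-negative difference of Ankrd1 was -2.06 (SE 0.74, limma adjusted p = 0.227), and the difference of responses was -2.28 (SE 1.05, adjusted p = 0.644).

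Amotl2 encodes an angiomotin, a junction protein that binds YAP and is also transcribed under its control. Its signal was 243 and 206 in Cre-negative sham, 295 and 211 in Cre-positive sham, 205 and 162 in Cre-negative hepatectomy, and 111 and 164 in Cre-positive hepatectomy libraries. It was the only member whose 4 hepatectomy libraries did not overlap the 4 sham libraries, a pattern that 17.4% of all genes showed in either direction and 6.2% in the lower direction. The gap was narrow, with 205 as the highest hepatectomy library and 206 as the lowest sham library. The averaged log2 fold change was -0.59 (SE 0.22, limma adjusted p = 0.17), with -0.88 (SE 0.31, adjusted p = 0.284) in Cre-positive and -0.29 (SE 0.31, adjusted p = 0.606) in Cre-negative livers. Its sign was thus opposite to that of Ctgf, Cyr61 and Ankrd1, the other 3 genes grouped here as targets. Lats2, also a known YAP target, had the same sign as Amotl2 (-0.65).

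**Figure D2:**
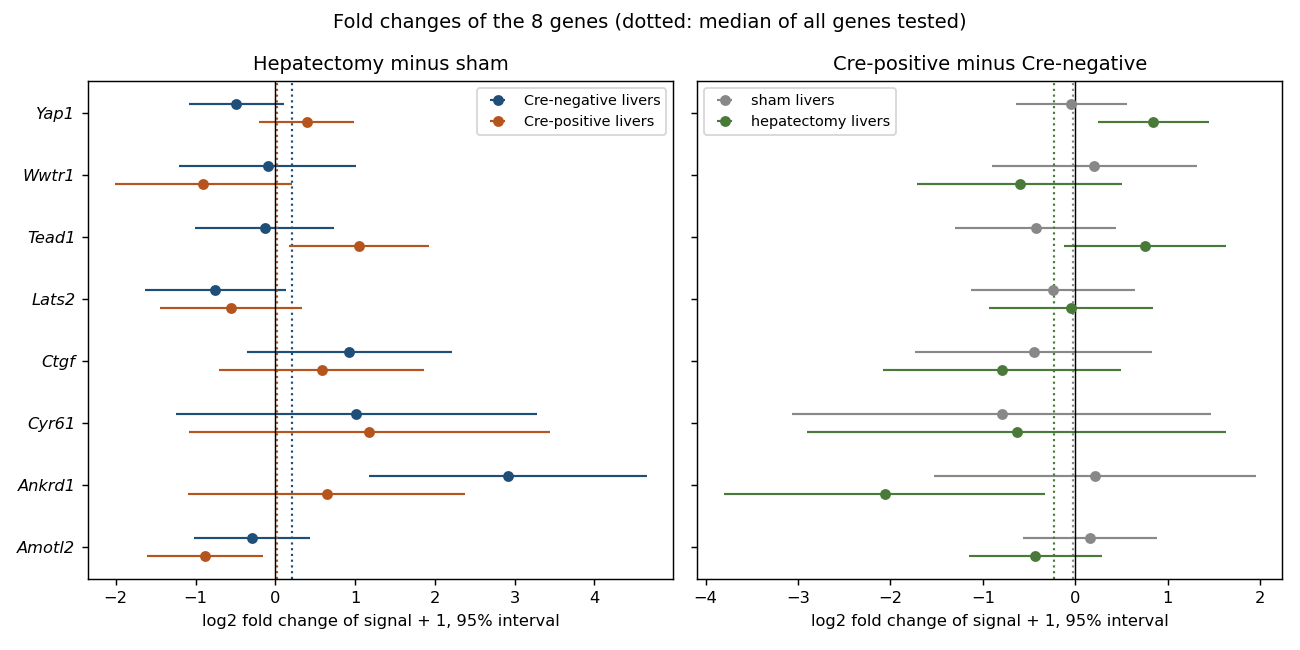
Log2 fold changes of signal + 1 with 95% intervals from limma, for hepatectomy minus sham within each genotype (left) and Cre-positive minus Cre-negative within each operation (right). Dotted lines give the median of all genes tested, 0.21 and 0.02 on the left and -0.03 and -0.23 on the right. Most intervals include 0, that of Ankrd1 in Cre-negative livers runs from 1.18 to 4.66, and none passed adjustment.

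Between the 2 sham groups the 8 genes differed by log2 values from -0.80 (Cyr61) to 0.21 (Ankrd1), each with a limma adjusted p of 1. Intervals were wide: that of Yap1 ran from -0.64 to 0.55 and that of Cyr61 from -3.06 to 1.47. The fit shared its spread over all 4 groups, so these widths also carry the spread of the hepatectomy libraries. Among genes that averaged 10 or more, the median log2 gap between replicates was 0.19 in Cre-negative and 0.17 in Cre-positive sham. It was 0.40 in Cre-negative and 0.65 in Cre-positive hepatectomy. After hepatectomy the genotypes did not overlap in Yap1 and Tead1, both higher in Cre-positive libraries, as in 14.2% of all genes. Nor did they in Ankrd1, lower in Cre-positive libraries, as in 26.3% of all genes. Lats2 differed by -0.05 (SE 0.38), Ctgf by -0.79 (SE 0.55), Cyr61 by -0.63 (SE 0.96) and Amotl2 by -0.43 (SE 0.31), with limma adjusted p between 0.444 and 0.952. The median of all genes was itself -0.23 in this contrast. Rescaling by median of ratios moved that median to -0.08 and the Lats2 difference to 0.11.

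Of the Yap1 isoforms, Yap1-007 had the pattern of the gene over a wider range. Yap1-001 carried a signal between 90.5 and 131 in all 8 libraries. Yap1-007 was 29.6 and 31.4 in Cre-negative sham and 27.9 and 28.0 in Cre-positive sham libraries, then 2.88e-05 and 0.000126 in Cre-negative hepatectomy and 69.4 and 78.0 in Cre-positive hepatectomy libraries. It thus held 11.3% to 13.7% of Yap1 signal in sham, next to nothing in Cre-negative hepatectomy, and 22.2% and 25.0% in Cre-positive hepatectomy libraries. Among 29 member isoforms that averaged 1 or more it was the only isoform that passed in any contrast. It fell after hepatectomy in Cre-negative livers (-4.98 on the log2(signal + 1) scale, SE 0.40, limma adjusted p = 0.00291 over 47375 isoforms, where 4.5% passed). In hepatectomy livers it was higher in Cre-positive than in Cre-negative libraries (6.22, SE 0.40, adjusted p = 0.00142, where 5.17% passed). The difference of responses passed too (6.34, SE 0.57, adjusted p = 0.0119, where 0.868% passed), and in Cre-positive livers the change of 1.37 did not (adjusted p = 0.434, where 0.0106% passed).

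These sizes rest on a group near 0 and are no bounds: with 10 in place of 1 added before the logarithm, the Cre-negative change was -2.02 and the difference of responses 3.16. Without any 1 of the 4 sham libraries the difference of responses no longer passed (limma adjusted p = 0.0757 to 0.105), and without Cre-negative sham replicate 1 the Cre-negative fall did not (adjusted p = 0.0523). The average over genotypes, -1.81 with an adjusted p of 0.0372 (1.72% of isoforms passed), lost its call with 10 added (-0.44, adjusted p = 0.273). It also lost it without any of 6 libraries, namely each sham library, Cre-negative hepatectomy replicate 1 and Cre-positive hepatectomy replicate 2 (adjusted p = 0.0507 to 0.195). Of 17239 isoforms with a signal of at least 10 in the other 6 libraries, 42 (0.244%) were under 0.001 in both Cre-negative hepatectomy libraries, against 1, 0 and 1 isoforms for Cre-negative sham, Cre-positive sham and Cre-positive hepatectomy. Whether the Cre-negative libraries lacked this transcript or its reads were assigned to Yap1-001 and Yap1-002 was not tested. With Yap1-007 taken away, the remaining Yap1 signal was 145 and 208 in Cre-negative hepatectomy and 243 and 234 in Cre-positive hepatectomy libraries, a difference of 0.46 on the log2 scale in place of 0.84. Yap1-009, a minor transcript, was likewise listed at 0 and 1.66e-05 in Cre-negative hepatectomy libraries, against 2.72 and 7.33 in Cre-positive hepatectomy and 0.0733 to 3.81 in sham libraries, and its difference of responses did not pass (limma adjusted p = 0.223). Yap1-002 was at 13.9 in Cre-negative hepatectomy replicate 1 and between 90.1 and 119 in the other 7 libraries.

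**Figure D3:**
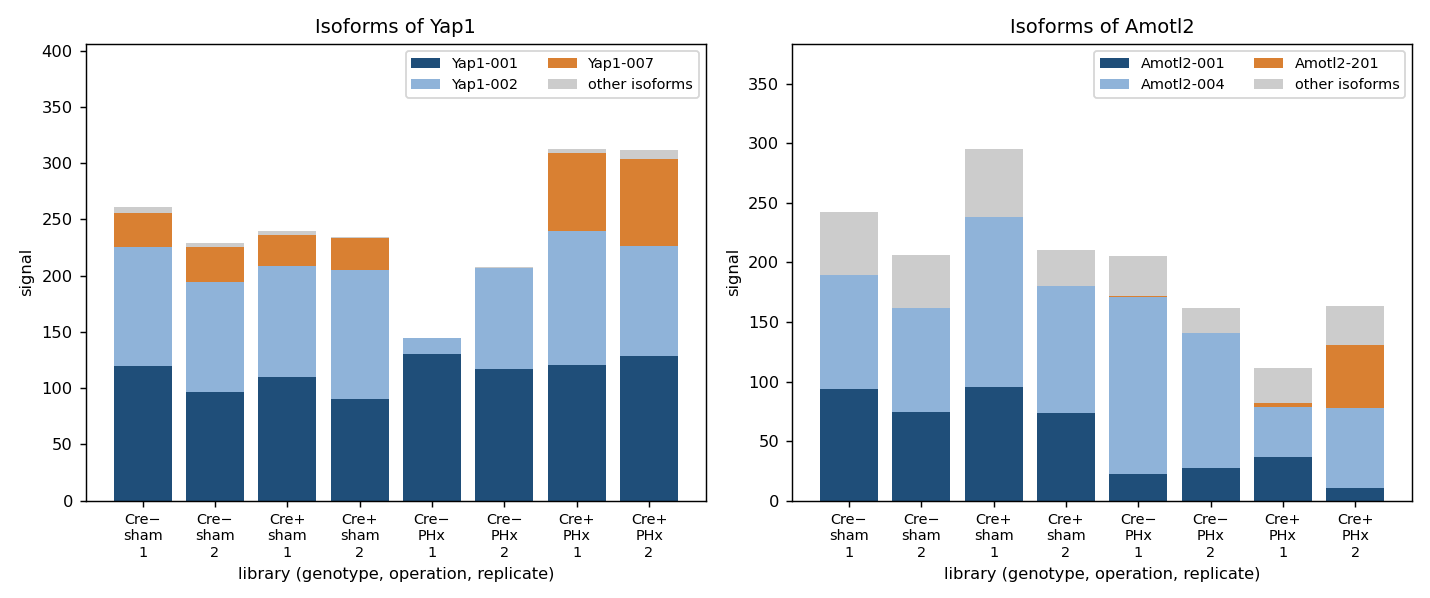
Stacked signal of the isoforms of Yap1 (left) and Amotl2 (right) in each library, with PHx for partial hepatectomy. The orange segment of Yap1-007 is missing in both Cre-negative hepatectomy libraries and reaches 69.4 and 78.0 in Cre-positive hepatectomy libraries, and the dark Amotl2-001 segment is shorter in all 4 hepatectomy libraries.

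Amotl2 had 2 major transcripts, of which Amotl2-001 was low after hepatectomy in both genotypes and Amotl2-004 in Cre-positive livers alone. The signal of Amotl2-001 was 94.1 and 74.5 in Cre-negative sham, 95.2 and 73.3 in Cre-positive sham, 22.0 and 27.0 in Cre-negative hepatectomy, and 36.9 and 10.5 in Cre-positive hepatectomy libraries. Hepatectomy and sham libraries did not overlap, with 36.9 as the highest hepatectomy value and 73.3 as the lowest sham value. The share of isoforms without overlap was not computed, and among genes it was 17.4% in either direction. The averaged log2 fold change of -1.88 (SE 0.42, limma adjusted p = 0.0857) did not pass, where 1.72% of isoforms did. It was -1.74 (SE 0.59, adjusted p = 0.146) in Cre-negative and -2.02 (SE 0.59, adjusted p = 0.434) in Cre-positive livers. Without Cre-positive hepatectomy replicate 1 the average was -2.31 and the Cre-positive value -2.88. Amotl2-004 was between 87.1 and 143 in sham, 149 and 113 in Cre-negative hepatectomy, and 41.7 and 67.0 in Cre-positive hepatectomy libraries. Both Cre-positive hepatectomy values thus lay under all 4 sham values (log2 fold change -1.21, SE 0.38, limma adjusted p = 0.483), while the Cre-negative ones did not (0.51, SE 0.38, adjusted p = 0.446). How many isoforms share that pattern was not computed. Amotl2-201 was under 0.5 in 6 libraries and reached 3.74 and 53.0 in the Cre-positive hepatectomy libraries. Amotl2-001 was lowest, at 10.5, in the library where Amotl2-201 was at 53.0. Whether reads were divided differently among the Amotl2 transcripts was not tested. Wwtr1 was carried mainly by Wwtr1-001, with 35.6 to 63.1 in 7 libraries and 20.7 in Cre-positive hepatectomy replicate 2. Ctgf was carried mainly by Ctgf-001, while Ctgf-003 held 22.5% of it in Cre-negative hepatectomy replicate 1 and 1.84% to 8.66% elsewhere.

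Library by library, Ctgf, Cyr61 and Ankrd1 were all high in Cre-negative hepatectomy replicate 1 and all low in Cre-positive hepatectomy replicate 1. The genes nearest in pattern to each member were sought among the 12165 genes that averaged 10 or more, by the root mean square (RMS) difference of their centred log2(signal + 1) over 8 libraries. The nearest to Cyr61 were Ltc4s (0.34), Krt19 (0.42), a keratin of bile duct cells, and 1700017B05Rik (0.43), where the median over all genes was 1.15. Krt19 signal was 49.0 and 14.5 in Cre-negative sham, 8.67 and 14.4 in Cre-positive sham, 57.4 and 36.6 in Cre-negative hepatectomy, and 12.5 and 35.4 in Cre-positive hepatectomy libraries. It was thus high in the same Cre-negative sham library as Cyr61 and low in the same Cre-positive hepatectomy library. The 2 genes differed in Cre-positive hepatectomy replicate 2, where Cyr61 was highest at 84.3. Krt19 was at 35.4 there, under its 49.0 in Cre-negative sham replicate 1. The nearest to Ctgf were Creb3l1 (0.19), Itpkc (0.19) and Prdm15 (0.20), against a median of 0.78. The nearest to Ankrd1 were Akr1b7 (0.26), Chka (0.31) and Ddit3 (0.38), against a median of 1.34. Ddit3, a stress-induced transcription factor gene, was between 20.7 and 35.1 in sham, 325 and 74.2 in Cre-negative hepatectomy, and 43.2 and 69.6 in Cre-positive hepatectomy libraries.

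Yap1, Wwtr1, Tead1, Lats2 and the target Amotl2 had flatter patterns than Ctgf, Cyr61 and Ankrd1, and smaller RMS differences from their nearest genes. The RMS difference is not scaled by a gene's own spread, so a smaller value for a flatter gene does not show a closer match in shape. N4bp1 (0.07), Gm8394 (0.08) and Uhrf2 (0.08) were nearest to Yap1, whose own RMS spread around its mean was 0.33. Uhrf2, for example, was 123 and 202 in Cre-negative hepatectomy and 286 and 277 in Cre-positive hepatectomy libraries, with 228 to 243 in sham. Hipk2 (0.15), Ly6c1 (0.16) and Nop56 (0.16) were nearest to Tead1. Smc1a, Cnbp and Dnajc1 (0.12 each) were nearest to Wwtr1, and all 3 were at their lowest in Cre-positive hepatectomy replicate 2. C030046E11Rik, Sgms2 and Baat (0.09 each) were nearest to Lats2, and Asl, Acss2 (0.16 each) and Ltbp4 (0.17) to Amotl2. A search over 12165 genes with 8 libraries returns close patterns for any gene, so these names are a description.

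**Figure D4:**
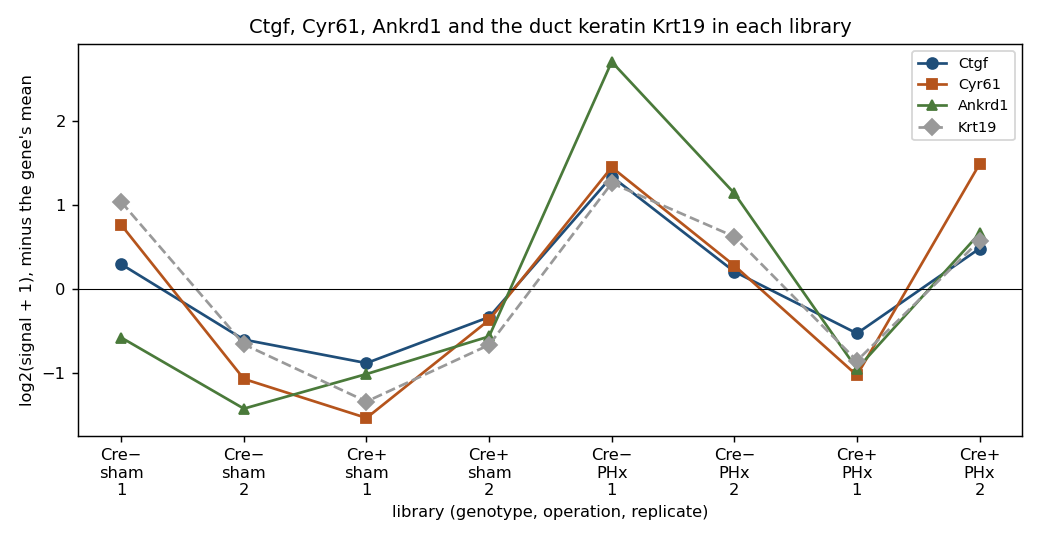
Log2(signal + 1) of Ctgf, Cyr61, Ankrd1 and Krt19 in each library, with the gene's own mean over the 8 libraries set to 0 and PHx for partial hepatectomy. All 4 lines are high in Cre-negative hepatectomy replicate 1 and low in Cre-positive hepatectomy replicate 1, and Cyr61 and Krt19 are also high in Cre-negative sham replicate 1.

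Markers of other liver cell types differed between the same libraries. In whole liver, fewer cells of a type and less RNA per cell cannot be told apart. The 7 cholangiocyte markers summed to between 459 and 558 in sham and between 577 and 1803 in hepatectomy libraries, with the highest sum in Cre-positive hepatectomy replicate 1. That sum was mostly Spp1 (1714), and the other 6 markers, among them Krt19, were lower in that library than in both Cre-negative hepatectomy libraries, as were Cyr61 and Ctgf. Between genotypes after hepatectomy 6 of the 7 were negative (median -1.04) and 0 passed. In that contrast 37.0% of all genes were positive, with a median of -0.23. All 7 cholangiocyte markers had positive averaged hepatectomy fold changes and 0 passed. Of all genes 57.7% were positive for averaged hepatectomy, and 4.49% passed in either direction. The 7 myofibroblast markers summed to between 948 and 1582 in sham and between 1798 and 4412 in hepatectomy libraries, and 2 of them rose (Col1a1 and Col3a1). The 9 stellate cell markers summed to between 2218 and 3095 in sham and between 1338 and 2140 in hepatectomy libraries, with 0 past the test. Their averaged hepatectomy fold changes were 3 positive and 6 negative (median -0.50), and the list includes the floxed gene Pdgfrb. Of 8 sinusoidal endothelial markers 2 fell (Kdr and Oit3), with sums of 3572 to 4656 in sham and 1635 to 3665 in hepatectomy libraries. The 5 mesothelial markers summed to between 124 and 231 in sham and between 60.6 and 381 in hepatectomy libraries. After hepatectomy all 5 were lower in Cre-positive than in Cre-negative livers (median -1.86, against -0.23 over all genes) and 0 passed. The 8 Kupffer cell and macrophage markers summed to between 1505 and 2464 in sham and between 1708 and 4265 in hepatectomy libraries. After hepatectomy all 8 had positive differences between Cre-positive and Cre-negative livers (median 0.83, against -0.23 over all genes), and 0 passed. Of 6 proliferation markers 5 rose, with sums of 353 to 439 in sham and 1304 to 2807 in hepatectomy libraries. None of the markers in these 7 lists was at 0 in any library, and the part of cell composition in the values of the 8 genes was not tested.

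The wider pathway was read from 5 lists holding 54 further genes, of which 48 could be tested. None passed in any of the 7 contrasts. For averaged hepatectomy 26 of the 48 had positive fold changes, where 57.7% of all genes did. The median of the 48 was 0.15 against 0.12 over all genes. At an unadjusted p under 0.05, 4 were higher and 6 lower, where 16.1% of all genes were higher and 7.75% lower. The lowest limma adjusted p was 0.0883, for Crb3, a cell polarity gene (0.82, SE 0.22). The lists share genes with each other and with the 8 genes above, which are included in the counts that follow. The 15 Hippo kinases, adaptors and scaffolds had a median of -0.49, with 11 negative and 4 positive. The 20 tested of 22 target signature genes, 9 positive and 11 negative, had a median of -0.12. Between genotypes after hepatectomy 4 were positive and 16 negative, where 37.0% of all genes were positive. The signature median was -0.71 against -0.23 over all genes. At an unadjusted p under 0.05, which 18.3% of all genes had, 2 were higher and 6 lower. The 5 tested CCN genes, which include Ctgf and Cyr61, were all positive, with a median of 0.53. Of 8 TEAD and VGLL genes 5 were tested (median 0.34), and Vgll1 and Vgll2 were listed at 0 in all 8 libraries. The 14 angiomotin, LIM, junction and cadherin genes had a median of 0.27.

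**Figure D5:**
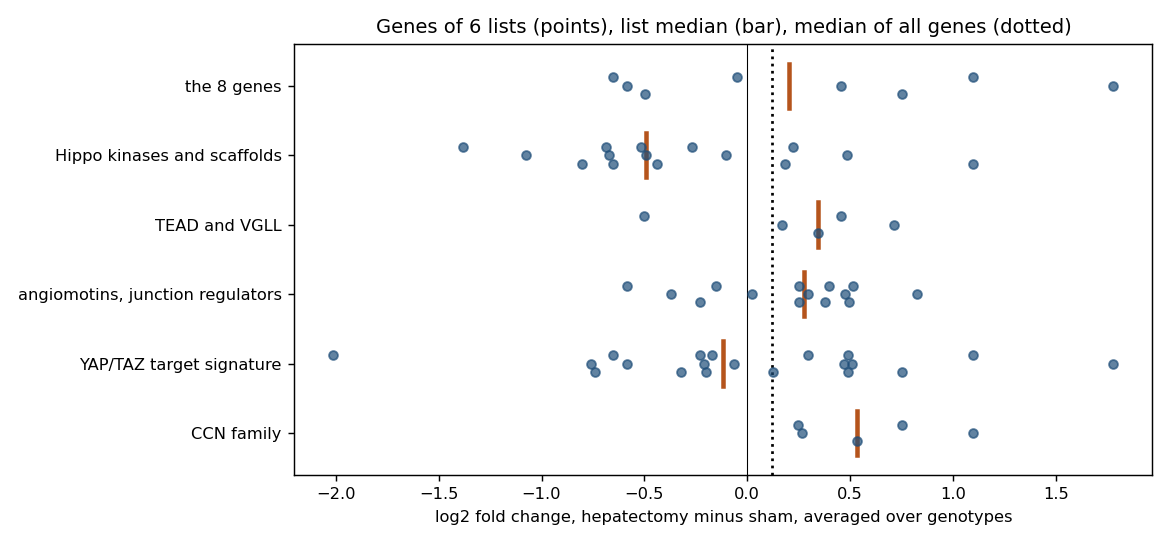
Log2 fold change of hepatectomy minus sham, averaged over genotypes, for each tested gene (point) of 6 lists, with the list's median (bar) and the median of all genes, 0.12 (dotted line). The Hippo kinase list has a median of -0.49 and the CCN list of 0.53, and no gene in any list passed the test.

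In the list of kinases and scaffolds, 11 of 15 genes had negative hepatectomy fold changes in Cre-negative livers. The list median there was -0.47, against 0.21 over all genes. Like Yap1, Stk4 and Nf2 were lower in Cre-negative hepatectomy livers, and both were picked after their values were seen. Stk4, which encodes the Hippo kinase MST1, was between 96.3 and 103 in sham, 34.2 and 54.1 in Cre-negative hepatectomy, and 119.8 and 108 in Cre-positive hepatectomy libraries. Its log2 fold change was -1.19 (SE 0.30, limma adjusted p = 0.107) in Cre-negative livers. Nf2, which encodes the upstream regulator merlin, was between 261 and 291 in sham, 153 and 171 in Cre-negative hepatectomy, and 235 and 293 in Cre-positive hepatectomy libraries (Cre-negative fold change -0.84, SE 0.23, adjusted p = 0.124). Wwc1, which encodes the scaffold KIBRA and had the highest mean signal of that list, ranged from 362 to 623 in sham, stood at 453 and 398 after Cre-negative hepatectomy, and reached 760 and 677 after Cre-positive hepatectomy. Its genotype difference after hepatectomy was 0.75 (SE 0.24, limma adjusted p = 0.193). Taok2, the next by mean, differed by 0.22 (SE 0.27) for averaged hepatectomy.

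Tead3 and Vgll4 had the highest means among the TEAD and VGLL genes. Tead3 was 81.8 and 112 in Cre-negative sham, 138 and 95.1 in Cre-positive sham, 182 and 117 in Cre-negative hepatectomy, and 74.3 and 121 in Cre-positive hepatectomy libraries, so the groups overlapped. Vgll4, which encodes a competitor of YAP for TEAD binding, had an averaged fold change of -0.50 (SE 0.23, limma adjusted p = 0.24). Scrib, a polarity gene, had 0.51 (SE 0.26, adjusted p = 0.267). In the target signature Gadd45a had the highest mean: its signal was 477 and 350 in Cre-negative sham, 351 and 60.6 in Cre-positive sham, 498 and 136 in Cre-negative hepatectomy, and 13.1 and 13.4 in Cre-positive hepatectomy libraries. It was lowest in both Cre-positive hepatectomy libraries, and the genotype difference of -4.20 there (SE 0.86) had a limma adjusted p of 0.126. Dock5, the next by mean, had an averaged fold change of -0.32 (SE 0.19, adjusted p = 0.317). After hepatectomy the genotype contrast of the 48 genes had 8 higher and 6 lower at an unadjusted p under 0.05, which 18.3% of all genes had, with a lowest adjusted p of 0.0988 for the signature gene Rbms3 (-1.96, SE 0.32).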

How the data were processed

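RNA of whole mouse liver was sequenced as 8 libraries after Trizol and column extraction with TruSeq kits on a HiSeq2000, per the labels' protocols. The submitters' processing notes name NCBIM37, mm9, Cufflinks and TopHat, without versions. The deposited values are a signal per gene and per isoform, with the normalization by the authors not given in the sources. Gene values matched the summed isoforms with a relative error of at most 2.3e-07. The values do not resolve into whole reads, which leaves the depth unknown, and no counting interval is given.

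Groups were taken from sample titles. limma 3.58.1 in R 4.3.3 was fitted to log2(signal + 1) with 4 group means, an intensity trend and a spread shared by all 8 libraries (residual degrees of freedom 4, prior 3.25), two-sided, with Benjamini-Hochberg adjustment over 16443 genes, or 47375 isoforms, of mean signal at least 1. The procedure was tested on simulated data. Alternatives covered the pseudocount, the filter, scaling, variance model, libraries fitted and leaving out each library. GC content came from the longest GENCODE M21 transcript (GRCm38), with a value for 96.6% of tested genes.

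The 8 genes and all lists were chosen with earlier results of these data known. Named besides the 8 genes are, per pathway list, members past the threshold or otherwise the 2 of highest mean, the 3 nearest patterns per gene, Pdgfrb, Gfap and the isoforms. Crb3, Rbms3, Stk4, Nf2, Vgll1, Vgll2, Col1a1, Col3a1, Kdr, Oit3 and Spp1 were added after their values were seen.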

Additional observations from a re-analysis of the deposited data

Results flagged for a closer look

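The hepatectomy response of the isoform Yap1-007 differed between the genotypes, by the test of that difference in limma. The difference was 6.34 on the log2(signal + 1) scale (SE 0.57, adjusted p = 0.0119). Yap1-007 was under 0.001 in both Cre-negative hepatectomy libraries and at 69.4 and 78.0 in both Cre-positive ones, so the size depends on the pseudocount. The difference kept its sign without each of the 8 libraries (6.26 to 6.42) and lost its call without any 1 of the 4 sham libraries. Yap1 as a gene did not pass the same test (0.89, adjusted p = 0.599).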

How the results depend on the processing

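With 2 libraries per group, of unknown depth, small differences were not detectable. No paired analysis was possible because the labels number the samples from 1 to 8, so the groups share no replicate number. Of 1080 comparisons of a member's value with its value under an alternative, 1026 kept direction and side of the threshold; the cause of the others was not tested. Leaving out a library also leaves fewer degrees of freedom.

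The number of genes past the threshold moved with the setting. For hepatectomy in Cre-negative livers it was 183, and 103 with no filter, 62 with median-of-ratios scaling, 79 with quantile normalization, 813 with array weights, 289 with only the compared groups, and 0 to 1698 leaving out a library. In Cre-positive livers it was 155, and 78 with pseudocount 10, 7 with no filter, 99 with quantile normalization, 0 with array weights or only the compared groups (1399 and 1469 at an unadjusted p under 0.05), and 1 to 3507 leaving out a library. For averaged hepatectomy it was 738, 405 with no filter, 422 with array weights, and 140 to 5408 leaving out a library. The highest of these counts came without Cre-positive hepatectomy replicate 1, and the lowest without a sham library. For genotype in sham livers it was 1, 0 with no filter (356 unadjusted), 33 with array weights, and 0 to 19 leaving out a library. After hepatectomy it was 3, 22 with no filter, 7 with no intensity trend, 0 with array weights or only the compared groups (989 and 1327 unadjusted), and 0 to 2217 leaving out a library. Averaged over operations it was 2, 1 with pseudocount 10, 7 with no filter, 0 with no intensity trend or array weights (1476 and 1000 unadjusted), and 0 to 971. For the difference of responses it was 2, 1 with pseudocount 0.1 or no filter, 0 with pseudocount 10 or array weights (1354 and 905 unadjusted), and 0 to 771. For isoforms in averaged hepatectomy it was 813, 534 with pseudocount 10, and 0 to 4517 leaving out a library.

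Lats2 reversed for genotype after hepatectomy, to 0.11 with median-of-ratios scaling and 0.26 with quantile normalization, and averaged over operations to 0.031 with quantile normalization. Leaving out a library reversed these log2 fold changes, given as lowest to highest. For hepatectomy in Cre-negative livers the ranges were -0.30 to 0.11 for Wwtr1 and -0.46 to 0.19 for Tead1. In Cre-positive livers they were -0.075 to 2.43 for Cyr61 and -0.16 to 1.45 for Ankrd1, and for averaged hepatectomy -0.18 to 0.082 for Yap1. For genotype in sham livers they were -0.14 to 0.051 for Yap1, -1.71 to 0.12 for Cyr61, -0.21 to 0.63 for Ankrd1 and -0.086 to 0.40 for Amotl2. After hepatectomy they were -1.32 to 0.11 for Wwtr1, -0.54 to 0.44 for Lats2 and -1.89 to 0.62 for Cyr61. Averaged over operations they were -0.56 to 0.16 for Wwtr1, -0.0021 to 0.32 for Tead1, -0.39 to 0.10 for Lats2 and -0.28 to 0.00075 for Amotl2. For the difference of responses they were -0.29 to 0.68 for Lats2, -0.91 to 0.22 for Ctgf and -1.09 to 1.42 for Cyr61.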
